A study of Mus musculus with 30 samples.

Results

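The genes described here are the 441 genes that the deposited tables place on mouse chromosome 14 and that reached a mean of at least 1 CPM (counts scaled to a common library total) over the 20 RNA-seq pools. They are 441 of 1707 listed genes of that chromosome, and 13207 of all 41388 listed genes reached the same level. One gene was left out when the members were chosen. Of the members, 413 were annotated as protein coding, and they spanned 115.2 Mb (GRCm38). The members just above the bound were Cdca2 (1.05 CPM) and Sftpa1 (1.07 CPM), and the genes just below it were Fam107a (0.967 CPM), Pbk (0.940 CPM) and Dusp13 (0.938 CPM). The members were chosen by their chromosome and their mean CPM, and the chromosome itself was selected on measured values, because its genes were low in the hepatocyte pools labelled transgenic, with the values of the transgenic-labelled livers also known. For both of those comparisons the chromosome-wide counts and medians are therefore a description. The knockout comparison was not used in the choice.

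RNA was pooled from 3 to 4 mice per library. Hepatocytes, isolated at 12 weeks of age by collagenase perfusion and kept overnight in culture on collagen, gave 3 pools labelled A1cf_Tg/+ (here Tg) and 3 pools of wild-type C57BL/6J (6J). Whole livers came from mice of 12 months, with 4 pools labelled A1cf_Tg/+ beside 4 pools of C57BL/6J, and, sequenced as another study, 3 pools labelled A1cf_-/- (KO) beside 3 pools of C57BL/6NJ (6NJ). A further 10 libraries came from CLIP-seq of Tg-labelled hepatocytes, in which RNA crosslinked to a protein is recovered with it. The labels used here describe neither the transgene's promoter and coding sequence nor the background strain of the transgenic and knockout mice. No label says that pools came from independent litters or days, so p-values measure the spread between these pools.

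A1CF binds RNA, and with the APOBEC1 enzyme it takes part in editing of Apob RNA. A mouse autosome carries many genes with unrelated functions, and the messenger RNA of each normally follows its own promoter and enhancers. Genes that share a chromosome are not expected to form a pathway. Chromosome 14 nonetheless carries several genes that hepatocytes use heavily, among them secreted proteins such as clusterin (Clu) and the inter-alpha-trypsin inhibitor heavy chains (Itih1, Itih3, Itih4), and metabolic enzymes such as glutamate dehydrogenase (Glud1) and methionine adenosyltransferase (Mat1a).

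RNA totals ran from 17044839 to 37211328 counts, and the hepatocyte marker genes were abundant in all 20 pools. A1cf fell to 20.1 to 28.9 CPM in the 3 KO livers against 199 to 237 CPM in the 6NJ livers. It was not higher in pools labelled Tg: Tg-labelled hepatocytes had 7.36, 9.83 and 10.5 CPM against 6.46, 10.6 and 11.01 CPM in wild type, and Tg-labelled livers had 156 to 174 CPM against 216 to 279 CPM. Whether the deposited counts can register the transgene was not tested, and every Tg direction below rests on the label alone. Hepatocyte pools Tg 1, Tg 2 and wild-type 1 had mitochondrial shares of 1.40%, 1.39% and 2.01% of counts, against 3.14% to 3.71% in the other 3 hepatocyte pools. In livers labelled Tg the mitochondrial share was 5.52% in pool 1 and 7.35% to 8.21% in pools 2 to 4, against 5.59% to 6.14% in 6J. The summed level of 6 hepatocyte markers was 7.06e+04 to 8.47e+04 CPM in those livers against 1.09e+05 to 1.21e+05 CPM in 6J. The part of these shares and sums in the member values below was not tested. The summed level of 13 skeletal muscle markers was 5199 CPM in 6J liver pool 2, against at most 11.4 CPM in the other pools of that comparison, and 48.4 to 251 CPM in KO livers against 3.24 to 5.34 CPM in 6NJ livers.

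Several members sit head to head with another member, that is, on opposite strands with starts at most 500 bases apart, and 24 such pairs were found. Stretches between 3 of these pairs are shown because the results below return to them: Adk with Ap3m1, Chdh with Il17rb, and Glud1 with Shld2. Each is the RefSeq promoter window of the plus-strand gene on GRCm38.p6, from 250 bases before to 50 bases after its start, and capitals mark the bases between the 2 deposited gene starts (65, 126 and 223 bases).
Adk, chr14:21052324-21052623, plus strand: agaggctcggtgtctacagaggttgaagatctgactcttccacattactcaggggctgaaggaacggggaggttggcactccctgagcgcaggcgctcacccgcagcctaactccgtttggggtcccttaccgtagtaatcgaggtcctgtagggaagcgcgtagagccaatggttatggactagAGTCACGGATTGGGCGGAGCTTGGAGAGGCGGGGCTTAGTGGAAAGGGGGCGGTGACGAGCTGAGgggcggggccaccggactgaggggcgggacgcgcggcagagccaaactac
Chdh, chr14:30008750-30009049, plus strand: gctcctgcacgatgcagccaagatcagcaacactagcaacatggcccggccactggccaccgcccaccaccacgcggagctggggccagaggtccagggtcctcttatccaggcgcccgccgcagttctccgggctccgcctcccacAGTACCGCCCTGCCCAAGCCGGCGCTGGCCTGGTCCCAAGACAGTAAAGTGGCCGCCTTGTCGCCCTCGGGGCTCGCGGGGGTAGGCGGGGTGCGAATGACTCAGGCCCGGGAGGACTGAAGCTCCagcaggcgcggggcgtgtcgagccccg
Glud1, chr14:34310477-34310776, plus strand: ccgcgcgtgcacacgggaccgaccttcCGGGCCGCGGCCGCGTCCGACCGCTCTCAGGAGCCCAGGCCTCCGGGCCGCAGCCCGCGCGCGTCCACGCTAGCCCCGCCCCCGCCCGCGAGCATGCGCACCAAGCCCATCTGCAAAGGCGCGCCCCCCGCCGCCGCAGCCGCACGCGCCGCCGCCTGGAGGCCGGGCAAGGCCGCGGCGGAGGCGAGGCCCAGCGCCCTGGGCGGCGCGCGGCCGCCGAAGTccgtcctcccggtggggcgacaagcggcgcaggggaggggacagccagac
The Adk window was 61.7% G and C, the Chdh window 70.3% and the Glud1 window 81.0%. RefSeq windows were matched by symbol for 328 of the 441 members. Their median was 60.0% G and C with 21 CG dinucleotides, against 60.7% and 20 over 9759 genes of the same minimum level on other chromosomes. The letters TATAAA, searched on both strands, were in 9.15% of member windows, in 7.60% of those other windows and in 14.2% of all 27025 windows of the table, and the medians of members and of other genes at this level were thus close.

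In hepatocytes labelled Tg, members were lower along the whole chromosome and in each pool. The level of each member was taken as log2 of TMM-scaled CPM (CPM scaled by edgeR's trimmed mean of M values) plus 0.5, minus the mean of the matching wild-type pools. Its median over the 441 members was -0.62, -0.52 and -0.60 in Tg-labelled hepatocyte pools 1, 2 and 3, that is 64.9%, 69.8% and 65.9% of the wild-type level. The 3 wild-type hepatocyte pools had medians of -0.02, 0.03 and 0.00. In pool 3 the other autosomes lay between -0.03 and 0.05, whereas in pool 1 they lay between -0.25 and 0.20 and in pool 2 between -0.20 and 0.16. The X chromosome was at -0.34, -0.25 and -0.08 in pools 1, 2 and 3. No other autosome and not the X was as low as chromosome 14 in any of these 3 pools.

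Among livers labelled Tg the pools differed. The median over members was -0.01 in pool 1, -0.56 in pool 2, -0.37 in pool 3 and -0.28 in pool 4, or 99.6%, 67.6%, 77.4% and 82.3% of the 6J level. Pool 1 thus stood at the level of its 4 wild-type pools, whose medians lay between -0.03 and 0.01, and the other 3 stood below them. In every comparison each wild-type pool is part of the mean it is set against, which draws its median towards 0. In Tg-labelled pool 2 every other autosome was within -0.03 and 0.03. Pools 3 and 4 had wider ranges over the other autosomes, from -0.21 to 0.23 and from -0.10 to 0.19, and in pool 1 the lowest autosome was chromosome 16 at -0.28. In KO livers the member median was -0.01, -0.01 and -0.02, with 6NJ livers between -0.01 and 0.01 and other autosomes between -0.05 and 0.02.

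**Figure D1:**
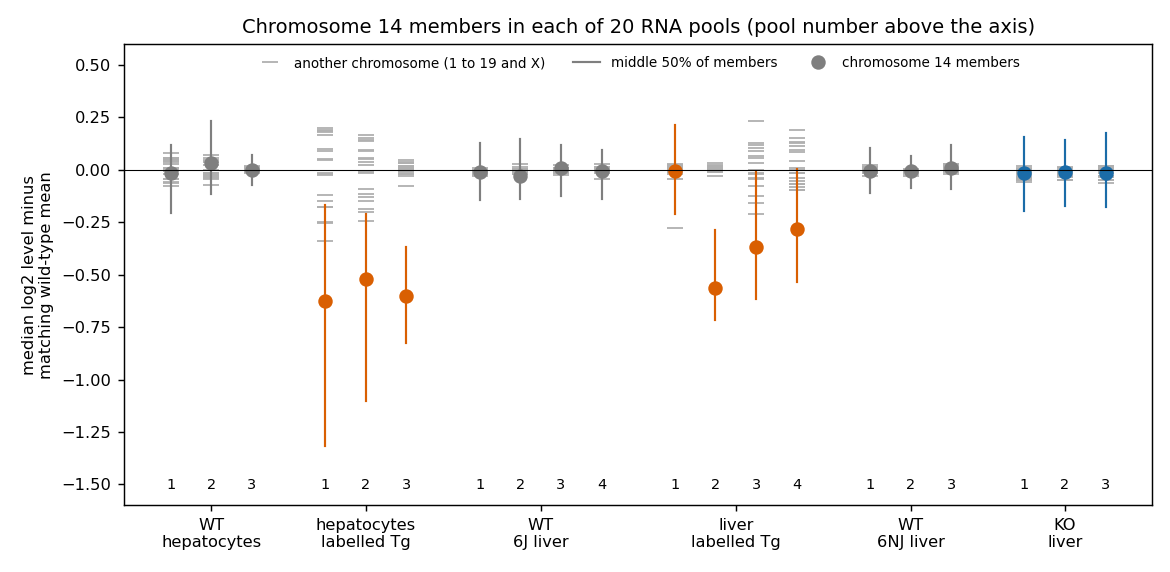
Median log2 level minus the matching wild-type mean (vertical axis) for the chromosome 14 members (points, with lines for the middle 50% of members) and for each other chromosome (grey dashes) in each of the 20 RNA pools. Members lie between -0.62 and -0.52 in the 3 hepatocyte pools labelled Tg, between -0.56 and -0.01 in the 4 livers labelled Tg, and between -0.03 and 0.03 in the KO and wild-type pools.

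The share of each library total that fell on members, taken from the same counts without TMM factors, went the same way. It is another description of those counts and no separate evidence. The share was 2.65%, 2.92% and 2.42% in Tg-labelled hepatocytes against 4.24%, 3.77% and 4.17% in wild type, with no overlap. In liver it was 3.61%, 2.41%, 2.58% and 2.75% in pools labelled Tg against 3.29%, 3.77%, 3.35% and 3.18% in 6J, so that Tg-labelled pool 1 lay inside the wild-type range and the other 3 below it. KO livers had 3.51%, 3.73% and 3.36%, overlapping the 6NJ livers at 3.74%, 3.55% and 3.43%. Abundant members weigh heavily in these shares. Clu alone had 10230, 9541 and 6389 TMM-scaled CPM in Tg-labelled hepatocytes and 15190, 9263 and 12690 in wild type.

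Single members followed the median closely in some pools and loosely in others. The middle 50% of members covered 0.455 log2 units in hepatocyte pool Tg 3 and 0.429 in liver pool Tg 2, against 0.404 and 0.380 for genes of other chromosomes in the same pools. In hepatocyte pools Tg 1 and Tg 2, members spread over 1.15 and 0.889 and other genes over 1.02 and 0.802. Longer genes were lower in those 2 pools. Over members, Spearman's rho of the difference with deposited length was -0.35 and -0.30 there, against -0.13 in pool Tg 3. Over other genes it was -0.35 and -0.29, against -0.15. Such a trend was not confined to Tg-labelled pools. Wild-type hepatocyte pools 1, 2 and 3 had rho of -0.28, 0.24 and 0.05 over members and -0.25, 0.23 and 0.02 over other genes. Genes within a library share its depth and preparation, so these are descriptions across genes. The 147 longest members (over 4628 bases) had medians of -1.05, -0.85 and -0.65 in Tg-labelled pools 1 to 3, beside -0.30, -0.21 and -0.04 for other long genes. The 147 shortest (under 2736 bases) had -0.39, -0.36 and -0.51 in these pools, beside 0.28, 0.17 and 0.06. Members were thus lower than other genes of like length in all 3 pools. By level, the 95 members with a mean of 1 to 5 CPM had medians of -0.33, -0.26 and -0.25 in these pools, and the 100 members of at least 50 CPM had -0.60, -0.56 and -0.65.

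In hepatocyte pools labelled Tg and in liver pools Tg 2 to 4, members were lower along most of the chromosome, though not evenly. Members were split by start into 13 windows of 10 Mb, of which 10 held at least 10 members. All 13 windows were below 0 in each Tg-labelled hepatocyte pool, and over the 10 fuller windows the medians ran from -0.73 to -0.37 in pool 3, from -1.21 to -0.36 in pool 1 and from -1.13 to -0.31 in pool 2. In Tg-labelled liver pool 2 the 10 fuller windows ran from -0.62 to -0.34, and in pools 3 and 4 they ran from -0.54 to -0.14 and from -0.47 to 0.00. The exceptions were the window from 80 to 90 Mb with 3 members, which was at 0.54 in pool 2 and 0.70 in pool 3, and that from 110 to 120 Mb with 9 members, at 0.03 in pool 4. Of the fuller windows, that from 0 to 10 Mb (11 members) was the highest in hepatocyte pool Tg 3 (-0.37). It was also the highest in liver pools Tg 2 (-0.34), Tg 3 (-0.14) and Tg 4 (-0.0029). In hepatocyte pools Tg 1 and Tg 2 the highest was that from 50 to 60 Mb. The window from 120 to 130 Mb (17 members) was the lowest in hepatocyte pool Tg 3 and in liver pools Tg 3 and Tg 4, but not in the others. Whether position matters was not tested. In KO livers the fuller windows stayed between -0.15 and 0.13, and in pool 1 of the Tg-labelled livers between -0.09 and 0.10. Across members, Spearman's rho between start and difference was at most 0.17 in size in all 20 pools.

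**Figure D2:**
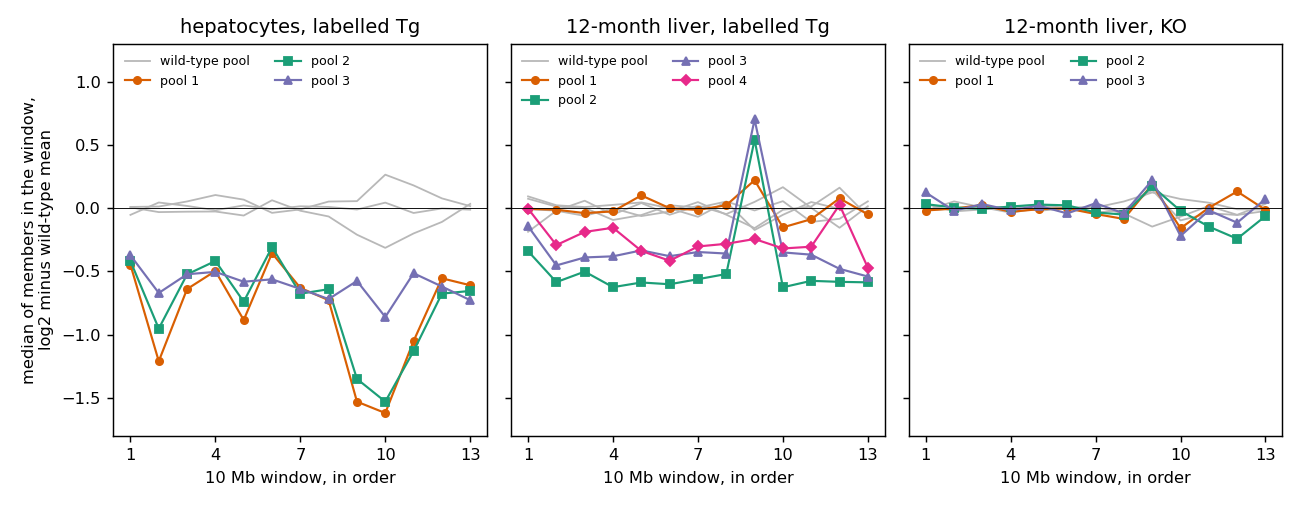
Median log2 level minus wild-type mean (vertical axis) of the members in each of 13 windows of 10 Mb, in order along the chromosome, for each pool labelled Tg or KO (coloured) and its wild-type pools (grey). Hepatocyte pools labelled Tg and liver pools Tg 2 to 4 lie below 0 in every window, except for liver pools Tg 2 and 3 in the window from 80 to 90 Mb (3 members) and liver pool Tg 4 in that from 110 to 120 Mb (9 members). KO pools stay between -0.15 and 0.13 in the 10 windows with at least 10 members.

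Member by member, 355 of 441 (80.5%) were below the wild-type mean in all 3 hepatocyte pools labelled Tg, against 30.0% of 12765 genes on other chromosomes. In liver pools Tg 2 to 4, 285 members (64.6%) were below it in all 3, against 27.3% of other genes, and over all 4 liver pools 175 (39.7%) were, against 20.1%. In KO livers 145 (32.9%) were below in all 3 pools, close to the 31.5% of other genes. Members that did not follow were few: 47 were above the wild-type mean in hepatocyte pool Tg 3 and 60 in liver pool Tg 2, the pools in which genes of other chromosomes had the narrowest spread among Tg-labelled pools of each comparison. In liver pool Tg 1, whose median was at the wild-type level, 213 members were above it. Of the 47 and the 60, 26 were above in both, which is 55.3% of the first and 43.3% of the second. Among 12765 other genes, 6489 and 6475 were above in these pools, and the same overlap was 58.5% and 58.6%. Far more of the other genes were above the wild-type mean in each pool, so the overlaps of members and other genes are not comparable. The 26 include the lectin gene Lgals3, known from macrophages (0.74 in the hepatocyte pool and 0.81 in the liver pool). Another is Wdfy4 (0.47 and 0.27), which acts in antigen presentation by dendritic cells. They also include genes of endothelium, such as the matrix protein gene Mmrn2 (0.26 and 0.07) and the DNase gene Dnase1l3 (0.51 and 0.07). In the other liver pools Dnase1l3 went the other way. It had 126 CPM in Tg-labelled pool 2 but 102, 109 and 107 CPM in pools 1, 3 and 4, against 116 to 123 CPM in 6J. Lgals3, Wdfy4, Mmrn2 and Dnase1l3 were named after their values were seen. Of 10 members listed for immune and sinusoidal cells, 5 were below the wild-type mean in hepatocyte pool Tg 3 and 3 in liver pool Tg 2. The summed level of 8 Kupffer cell markers was 78.8 to 129 CPM in Tg-labelled against 47.1 to 82.9 CPM in wild-type hepatocytes, and 342 to 508 CPM in Tg-labelled against 246 to 456 CPM in 6J livers, and none of the 8 was at 0 throughout a group. The summed level of 5 sinusoidal endothelium markers was 9.39 to 16.3 CPM in Tg-labelled against 13.3 to 16.2 CPM in wild-type hepatocytes, and 325 to 416 CPM in Tg-labelled against 321 to 362 CPM in 6J livers, and none of them was at 0 throughout a group. Their part in these values was not tested. In bulk RNA, fewer cells of a type and less RNA per cell cannot be told apart.

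Each comparison was then fitted over all genes with edgeR. In hepatocytes, 412 members passed the filter on low counts, and 77 fell and 1 rose at an adjusted p below 0.05. Over all 13770 genes tested, 1.62% were lower and 1.53% higher, 3.15% together. The median log2 fold change was -0.69 for members and 0.00 for the 13358 other genes tested, and 89.8% of members had an estimate below 0, beside 51.1% of all genes tested. The groups did not overlap, with Tg-labelled pools lower, for 276 of the 412 members, while 16.5% of all genes tested did so. The number of calls rested on single pools: with both directions together it was 2, 1 and 223 without Tg-labelled pool 1, 2 and 3, and 3, 9 and 0 without wild-type pool 1, 2 and 3, where the main fit had 78. Without Tg-labelled pools 1 and 2 and wild-type pool 1, the pools of low mitochondrial share, it was 76, with a median of -0.70, and the lone Tg-labelled pool is then assumed to vary like the others. Of the 13 genes called here that the naming rule gave, 0 were called by edgeR or DESeq2 under every alternative.

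In livers labelled Tg, 432 members were tested, and 9 fell and 3 rose, where 0.361% of 14110 genes were lower and 0.971% higher, 1.33% together. Scaled to library totals alone, which moved the median of other genes to 0.14, the calls were 5 lower and 5 higher and the member median was -0.16. The median log2 fold change was -0.30 for members and 0.00 for 13678 other genes, and 79.9% of members were below 0, beside 50.6% of all genes tested. For 71 members all Tg-labelled livers lay under all 6J livers and for 12 above them, beside 5.29% and 6.41% of all genes tested. The count of calls rose from 12 to 95 (89 lower and 6 higher) without Tg-labelled pool 1. It was 13 (5 lower and 8 higher) without Tg-labelled pool 2, so that rises outnumbered falls. It was 2 and 0 without Tg-labelled pools 3 and 4, 1, 0 and 0 without 6J pools 1, 3 and 4, and 22 without 6J pool 2, the pool with the high muscle marker sum.

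In KO livers, 436 members were tested, and 13 rose and 8 fell, where 1.50% of 15942 genes were higher and 1.48% lower, 2.98% together. The median was -0.02 for members and -0.01 for 15506 other genes, and 53.0% of members were below 0, beside 51.1% of all genes tested. For 65 members (14.9%) all KO pools lay under all 6NJ pools, beside 12.7% of all genes tested. For 58 members (13.3%) they lay above them, beside 11.6%. Of the members tested, 2.98% were called higher and 1.83% lower. Leaving out KO pools 1, 2 and 3 gave 2, 6 and 3 calls, leaving out 6NJ pools 2 and 3 gave 2 and 6, and leaving out 6NJ pool 1 gave 19, of which 8 were higher and 11 lower.

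**Figure D3:**
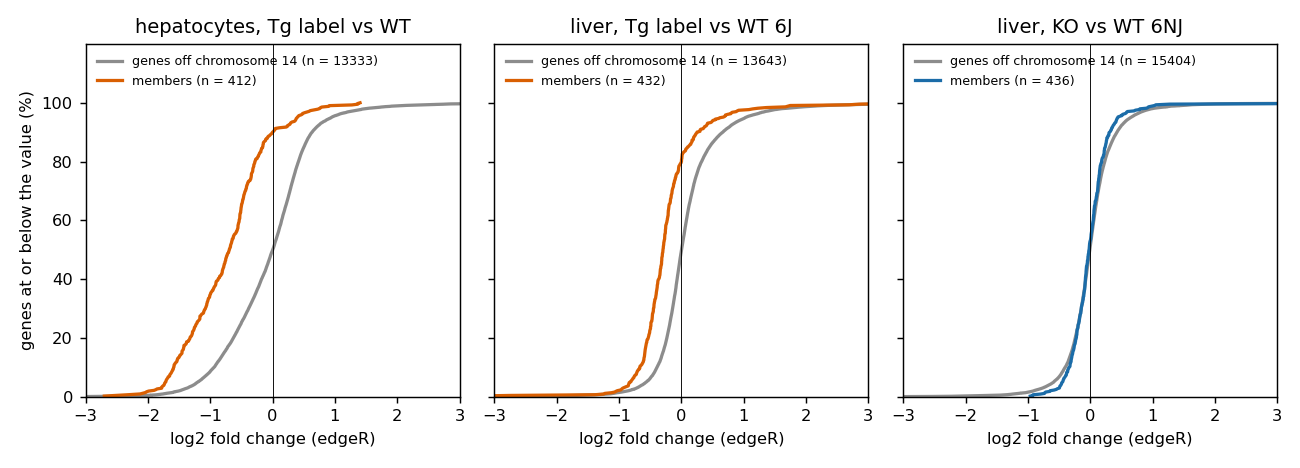
Cumulative share of genes (vertical axis, %) at or below each edgeR log2 fold change (horizontal axis) for members (coloured) and genes off chromosome 14 (grey) in the 3 comparisons. The member curve is moved to the left in hepatocytes (median -0.69) and in livers labelled Tg (-0.30), and lies on the grey curve in KO livers (-0.02).

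The difference between the Tg and KO effects in liver was tested as a contrast of the 4 liver groups, which share no controls. It was below 0 for 9 of 441 members and above 0 for 1, beside 0.411% and 0.614% of 16295 genes, with a median of -0.27 for members and 0.02 for other genes. Comparing the Tg effects of liver and hepatocytes, 7 of 436 members were higher in liver and 0 lower in the edgeR test, beside 0.392% and 0.450% of all genes, 0.842% together. That contrast contains the values by which the chromosome was chosen.

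By mean CPM over the 20 pools the highest members were Clu (4409), Rpph1, the RNA subunit of ribonuclease P (3185), Mat1a (2037) and Itih4 (2026). Rpph1 differed between the 3 comparisons, with 1.303 to 3.04 CPM in hepatocytes, 1259 to 3128 CPM in Tg-labelled and 6J livers and 4696 to 9174 CPM in KO and 6NJ livers. Wild-type livers alone had 2866 to 3128 CPM in 6J and 4696 to 9174 CPM in 6NJ, which were sequenced as separate studies. These CPM are scaled within each comparison, and the cause was not tested. The list counts below stand beside the share of all members tested that fell: 18.7% in hepatocytes, 2.08% in Tg-labelled livers and 1.83% in KO livers. Of 8 secreted plasma proteins tested, 1 fell in hepatocytes and none passed the test in either liver comparison. The list medians were -0.40 in hepatocytes, -0.15 in Tg-labelled livers and -0.28 in KO livers. The gene that fell was Cpb2, the carboxypeptidase that slows clot breakdown, at -0.93 ± 0.12 (log2 fold change ± SE, adjusted p = 0.0185). Clu, which encodes the chaperone-like plasma protein clusterin, had 10230, 9541 and 6389 TMM-scaled CPM in Tg-labelled hepatocytes against 15190, 9263 and 12690 in wild type. Those groups overlapped (adjusted p = 0.246). Itih4, an inter-alpha-trypsin inhibitor chain that rises in the acute phase, had 4754 CPM in Tg-labelled liver pool 1 and 1915, 1417 and 2155 CPM in pools 2 to 4, against 2551, 4304, 2282 and 2148 CPM in 6J livers. Pool 1 was the highest of the 8 livers for this gene, and its relative Itih3 was likewise highest there (1752 CPM, against 793 to 933 CPM in pools 2 to 4).

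Metabolic enzymes had 4 falls among 19 in hepatocytes and 2 falls in Tg-labelled livers, and 2 rises and 1 fall in KO livers, with medians of -0.52, -0.47 and 0.04. Glud1, which releases ammonia from glutamate in mitochondria, had 413, 377 and 309 CPM in Tg-labelled hepatocytes against 790, 692 and 788 CPM in wild type. The groups were apart, with a log2 fold change of -1.05 ± 0.15 (adjusted p = 0.0273). In livers it had 971, 666, 484 and 696 CPM in the Tg-labelled pools and 922 to 1137 CPM in 6J (-0.56 ± 0.20, adjusted p = 0.158), so pool 1 alone reached the wild-type range. In KO livers it was at 987 to 1135 CPM against 1023 to 1079 CPM. Its head-to-head neighbour Shld2, a DNA repair factor, had a hepatocyte estimate of -1.06 ± 0.22 (adjusted p = 0.0559), near that of Glud1.

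Pcca, the alpha subunit of propionyl-CoA carboxylase, was low in both Tg comparisons. It had 12.4, 10.99 and 11.5 CPM against 23.2, 23.4 and 20.7 CPM in hepatocytes (-0.95 ± 0.15, adjusted p = 0.0299). In livers it had 49.7, 38.6, 35.7 and 41.9 CPM against 74.9, 69.7, 88.4 and 83.8 CPM (-0.93 ± 0.13, adjusted p = 0.0166), and no pool overlapped, pool 1 included. The KO estimate was 0.18 ± 0.09 (adjusted p = 0.311), and the Tg effect in liver was lower than the KO effect by a log2 difference of -1.13 ± 0.17 (adjusted p = 0.00984). This difference kept its call without any 1 liver pool, with adjusted p of 0.00236 to 0.0455. The liver fall itself had an adjusted p of 0.0609 without Tg-labelled pool 4, 0.0646 without 6J pool 3 and 0.0723 without 6J pool 4.

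Mat1a, which makes S-adenosylmethionine, did not go with the other enzymes in hepatocytes, where it had 247, 232 and 289 CPM against 201, 217 and 202 CPM (0.31 ± 0.13, adjusted p = 0.167). In Tg-labelled livers it had 3482, 2231, 1416 and 1651 CPM against 2999 to 4859 CPM in 6J, pool 1 again within the wild-type range. Abhd6, a lipase of monoacylglycerol, rose in KO livers, with 85.2, 64.1 and 82.2 CPM against 55.5, 35.5 and 32.9 CPM (0.90 ± 0.19, adjusted p = 0.0374). Its values in Tg-labelled livers were 27.1, 29.1, 17.6 and 26.2 CPM, all under the 35.4 to 43.7 CPM of 6J livers (-0.68 ± 0.16, adjusted p = 0.0689). The Tg effect minus the KO effect was -1.598 ± 0.28 (adjusted p = 0.0206), and its adjusted p was 0.0774 and 0.0626 without KO pools 1 and 3 and 0.0723 and 0.0727 without 6NJ pools 2 and 3.

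**Figure D4:**
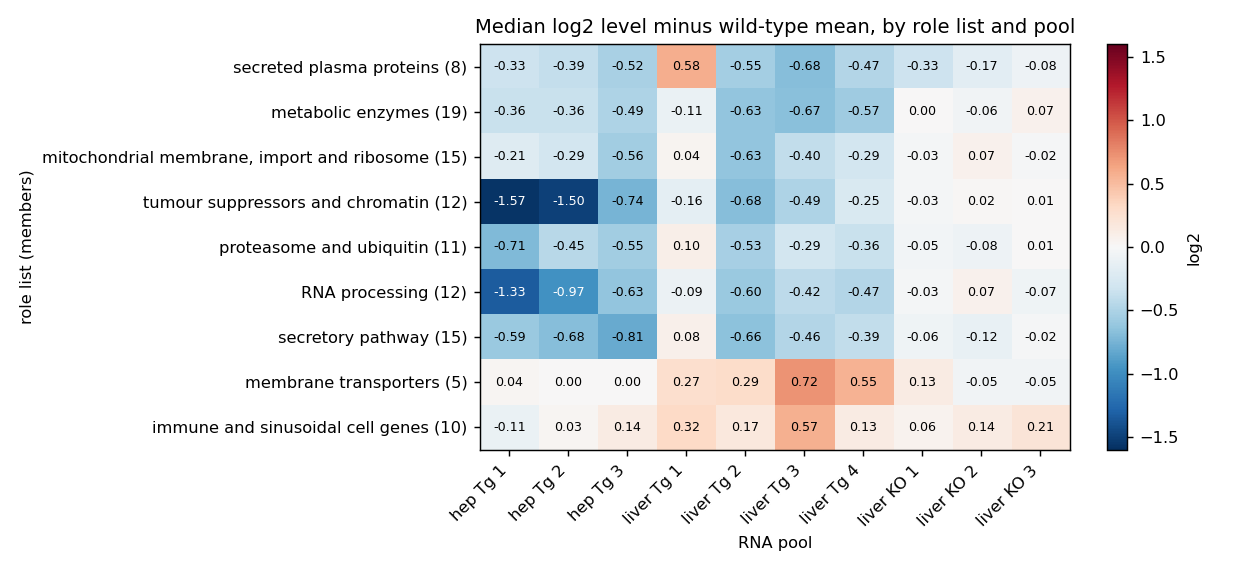
Median log2 level minus wild-type mean for role lists of members (rows, number of members in brackets) in each pool labelled Tg or KO (columns), with the value printed in the cell. The list of muscle genes (3 members) is not shown. The 7 lists from secreted plasma proteins to the secretory pathway are below 0 in all 3 hepatocyte pools and in liver pools Tg 2 to 4, and the membrane transporters and the immune and sinusoidal genes are at or above 0 in nearly all of these.

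Mitochondrial membrane, import and ribosome genes had 2 falls among 15 in hepatocytes and none passing in either liver comparison, with medians of -0.34, -0.29 and 0.01. All 15 had estimates below 0 in both Tg comparisons, as did 89.8% of all members tested in hepatocytes and 79.9% in Tg-labelled livers. Slc25a37, the mitoferrin that carries iron into mitochondria, had 43.1, 37.0, 36.0 and 38.2 CPM in Tg-labelled livers against 73.9, 48.1, 53.7 and 59.6 CPM in 6J (-0.61 ± 0.14, adjusted p = 0.0676). In KO livers it had 61.2, 51.2 and 67.6 CPM against 54.7, 41.6 and 43.3 CPM, and the Tg effect minus the KO effect was -0.99 ± 0.21 (adjusted p = 0.0455, and up to 0.133 without 1 liver pool). Bnip3l, a receptor for removal of mitochondria by autophagy, fell in hepatocytes, with 9.16, 11.1 and 16.6 CPM against 32.5, 52.9 and 37.5 CPM (-1.74 ± 0.29, adjusted p = 0.0325).

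Tumour suppressor and chromatin genes had 6 falls among 12 in hepatocytes, where 18.7% of all members tested fell. Their hepatocyte median was the lowest of the lists with 8 or more members, -1.27, beside -0.69 for all members tested. Their medians were -1.57, -1.50 and -0.74 in pools Tg 1, 2 and 3, so the list was lower in the 2 Tg-labelled pools with the stronger length trend. Rb1, the retinoblastoma cell cycle brake, fell by 1.70 ± 0.25 (adjusted p = 0.0290), with single-pool differences of -1.67, -1.597 and -1.29. Rb1, Lats2, Cpb2 and Shld2 were named after their values were seen. Lats2, a kinase of the Hippo pathway, had -1.27, -1.11 and -0.79 (-1.06 ± 0.16, adjusted p = 0.0297). Only 1 of the 12 passed the test in Tg-labelled livers, and none in KO livers. That gene was Ndrg2, a stress-response gene counted among tumour suppressors, with 1085, 893, 754 and 811 CPM against 1475, 1597, 1759 and 1552 CPM (-0.85 ± 0.14, adjusted p = 0.0332). No Tg-labelled liver reached the wild-type range, and pool 1 was the highest of the 4. Its adjusted p was 0.0677 and 0.101 without Tg-labelled pools 3 and 4, and 0.0812, 0.111 and 0.0990 without 6J pools 1, 3 and 4. In hepatocytes it fell as well (-0.66 ± 0.11, adjusted p = 0.0355).

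Genes of RNA processing and of the proteasome and ubiquitin system had estimates below 0 throughout in both Tg comparisons, 12 of 12 and 11 of 11. Of all members tested, 89.8% in hepatocytes and 79.9% in Tg-labelled livers had such estimates. In hepatocytes 3 of the RNA processing genes and 1 of the ubiquitin genes fell, and none passed in liver. Hnrnpc, a splicing factor that coats nascent RNA, had 79.0, 80.7 and 74.6 CPM in Tg-labelled hepatocytes, under the 90.5 to 101.3 CPM of wild type (-0.30 ± 0.11, adjusted p = 0.147). Secretory pathway genes had 4 falls among 15 in hepatocytes and a median of -0.76. Tm9sf2, a multispanning protein of Golgi and endosomes, had 73.7, 84.2 and 87.0 CPM against 189, 181 and 179 CPM (-1.17 ± 0.12, adjusted p = 0.0118), a narrow spread in both groups. Dnajc3, a chaperone of the endoplasmic reticulum, fell from 105, 130 and 110 CPM to 39.8, 43.2 and 61.0 CPM (-1.26 ± 0.20, adjusted p = 0.0299). In liver, Tm9sf2 had 174 CPM in Tg-labelled pool 1 and 97.7, 111 and 118 CPM in pools 2 to 4, against 165 to 187 CPM in 6J.

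The largest fall in hepatocytes was that of Sall2, a zinc finger transcription factor, with 1.42, 1.69 and 1.599 CPM against 9.28, 11.2 and 10.2 CPM (-2.70 ± 0.19, adjusted p = 0.00582). Its adjusted p was 0.0632 without wild-type pool 3 and stayed below 0.05 without any other 1 pool. In KO livers Sall2 had 10.6, 11.4 and 9.67 CPM against 4.72, 7.54 and 6.83 CPM, an increase that missed the threshold (0.72 ± 0.17, adjusted p = 0.0550). Tmem260, a membrane protein gene, had 5.07, 5.63 and 5.03 CPM against 18.0, 18.1 and 17.9 CPM (-1.78 ± 0.15, adjusted p = 0.00815), with adjusted p of 0.0558 without Tg-labelled pool 2 and 0.0690 without wild-type pool 3. The 1 rise was Phf11b, a PHD finger gene, with 4.52, 4.38 and 5.52 CPM against 1.79, 1.74 and 2.05 CPM (1.37 ± 0.21, adjusted p = 0.0303).

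Transporters and genes of immune and sinusoidal cells were mixed. In hepatocytes 2 of 4 transporters tested and 5 of 10 immune and sinusoidal genes had estimates below 0, and in Tg-labelled livers 2 of 5 and 3 of 9 did. Slc39a14, an importer of zinc and iron and the most abundant of the transporters, had 96.5, 122.5 and 121.7 CPM in Tg-labelled hepatocytes, apart from 184.6, 188.1 and 171.3 CPM in wild type (-0.68 ± 0.14, adjusted p = 0.0518). In Tg-labelled livers it had 495.3 CPM in pool 1 and 178.9 to 203.9 CPM in pools 2 to 4, against 336.6 to 534.5 CPM in 6J (-0.64 ± 0.33, adjusted p = 0.312). None of the transporters passed in hepatocytes, and Slc7a7, the light chain of a cationic amino acid exporter, rose in Tg-labelled livers. It had 9.04, 6.32, 12.0 and 10.8 CPM against 4.45, 4.49, 3.98 and 4.31 CPM (1.14 ± 0.20, adjusted p = 0.0369), while the KO estimate was -0.30 ± 0.20. In hepatocytes its Tg-labelled pools, at 9.48 to 11.6 CPM, lay under the 12.2 to 13.3 CPM of wild type (-0.32 ± 0.16, adjusted p = 0.220). The difference of the 2 effects was 1.43 ± 0.29 (adjusted p = 0.0363), and 11 of the 14 fits without 1 liver pool lost that call, with adjusted p up to 0.103. Abcc4, an efflux pump of bile acids and nucleotides, had 106 CPM in Tg-labelled liver pool 3 and 6.45, 9.94 and 19.8 CPM in pools 1, 2 and 4. The 10 immune and sinusoidal genes, of which 9 were tested in Tg-labelled livers, had medians of 0.13, 0.30 and 0.16 in the 3 comparisons, and none passed in any. Irf9, a transcription factor of interferon signalling, had 43.8 CPM in Tg-labelled liver pool 1 and 20.8 to 24.4 CPM in pools 2 to 4, against 27.6 to 48.7 CPM in 6J (-0.46 ± 0.26, adjusted p = 0.352). Stab1, a scavenger receptor of sinusoidal endothelium, had 139, 180, 152 and 139 CPM in Tg-labelled livers against 133 to 143 CPM in 6J.

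Dnah1, the heavy chain of an axonemal dynein, had the largest rise in Tg-labelled livers. It had 5.18, 2.01, 15.7 and 19.1 CPM there, against 0.297, 0.596, 0.0603 and 0.250 CPM in 6J livers (5.00 ± 0.82, adjusted p = 0.0320). Plated hepatocytes of both labels expressed it, at 17.4, 19.01 and 14.9 CPM (Tg) and 12.4, 11.2 and 13.2 CPM (wild type), and the Tg effect was larger in liver than in hepatocytes by 4.33 ± 0.89 (adjusted p = 0.0437). The liver call was lost without any of 5 pools, with adjusted p of 0.0633 and 0.0782 without Tg-labelled pools 3 and 4, and 0.107, 0.106 and 0.100 without 6J pools 1, 3 and 4. Vwa8, a mitochondrial AAA-type ATPase gene, fell in Tg-labelled livers and rose in KO livers. It had 205, 213, 158 and 204 CPM against 335, 315, 382 and 360 CPM in 6J (-0.84 ± 0.12, adjusted p = 0.0215), and 466, 467 and 504 CPM against 367, 305 and 326 CPM in 6NJ (0.53 ± 0.10, adjusted p = 0.0240). The difference between the effects, -1.38 ± 0.17 (adjusted p = 0.00228), passed without any 1 of the 14 liver pools, with adjusted p of 0.00149 to 0.0147. Separately, the fall had adjusted p of 0.0618 to 0.0870 without Tg-labelled pool 4 or 6J pools 1, 3 or 4, and the rise had adjusted p of 0.0532 to 0.112 without any 1 KO pool or 6NJ pools 2 or 3.

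**Figure D5:**
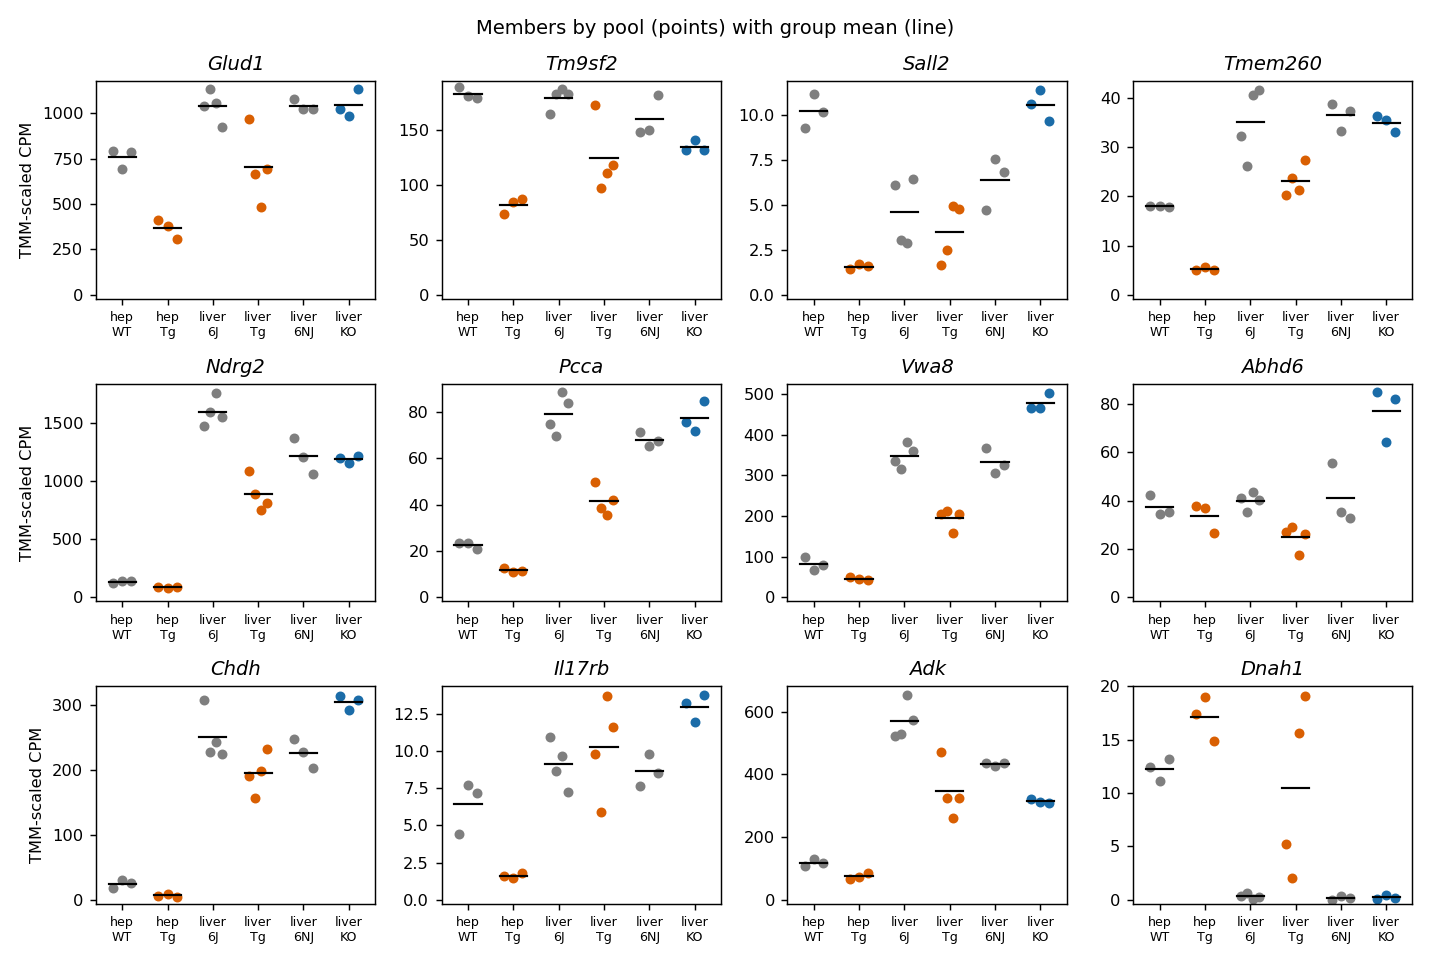
Level of 12 members in TMM-scaled CPM (vertical axes, each from 0) in every RNA pool (points) with the group mean (line), for hepatocytes (hep) and livers of each label. Levels are scaled within each comparison, so groups of different comparisons are not on 1 common scale, and pools labelled Tg lie below their wild type for Glud1, Tm9sf2, Sall2, Tmem260, Pcca and Vwa8 in hepatocytes, and Dnah1 is near 0 in livers other than those labelled Tg.

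In KO livers the calls were scattered among genes of different roles. Tsc22d1, a TGF-beta-inducible transcription regulator, rose from 59.5, 39.2 and 40.6 CPM to 87.3, 100.7 and 100.3 CPM (1.05 ± 0.15, adjusted p = 0.00819). It passed without any 1 of the 6 pools. Pcdh17, a protocadherin (1.04 ± 0.20, adjusted p = 0.0273), Chrna2, a nicotinic receptor subunit (0.80 ± 0.15, adjusted p = 0.0269), and Dgkh, a diacylglycerol kinase (0.79 ± 0.18, adjusted p = 0.0472), rose as well. Eaf1, a transcription elongation factor, fell from 40.1, 39.4 and 58.2 CPM to 27.9, 28.9 and 27.2 CPM (-0.71 ± 0.14, adjusted p = 0.0328). Ldb3, a Z-disc protein of striated muscle, had 3.48, 0.375 and 1.96 CPM against 0.232, 0.0901 and 0.140 CPM (3.67 ± 0.78, adjusted p = 0.0389), in the order of the summed muscle markers of the KO pools (251, 48.4 and 193 CPM). The part of other muscle RNA in this value was not tested. In 6J livers Ldb3 had 39.3 CPM in pool 2, the pool with the high muscle marker sum, and 0.422 to 0.937 CPM in the others.

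Both genes were called in KO livers in 2 of the 24 head-to-head member pairs, and in 1 of 570 such pairs on other chromosomes. Adk, adenosine kinase, had 320, 312 and 309 CPM against 436, 427 and 437 CPM (-0.47 ± 0.08, adjusted p = 0.0174), and Ap3m1, an adaptor subunit of endosomal transport, had 96.9, 98.2 and 88.1 CPM against 128, 120 and 136 CPM (-0.44 ± 0.09, adjusted p = 0.0328). Chdh, choline dehydrogenase, had 314, 292 and 307 CPM against 248, 227 and 203 CPM (0.43 ± 0.10, adjusted p = 0.0485), and Il17rb, a receptor for interleukin 25, had 13.2, 12.0 and 13.8 CPM against 7.63, 9.82 and 8.51 CPM (0.58 ± 0.13, adjusted p = 0.0404). The latter pair went the other way in Tg-labelled hepatocytes, where Chdh had 6.29, 9.06 and 4.72 CPM against 18.1, 30.2 and 25.3 CPM (-1.87 ± 0.30, adjusted p = 0.0306) and Il17rb had 1.62, 1.451 and 1.79 CPM against 4.43, 7.70 and 7.17 CPM (-1.99 ± 0.28, adjusted p = 0.0246). For Il17rb the Tg effect was higher in liver than in hepatocytes by 1.96 ± 0.38 (adjusted p = 0.0360). Over all 24 member pairs, the 2 genes had estimates of the same sign in 11 of 24 in KO livers, against 61.4% of 570 pairs on other chromosomes. Both lay below 0 in 23 of 24 in Tg-labelled hepatocytes, against 154 of 560 other pairs. Of all members tested in hepatocytes, 89.8% had an estimate below 0, so this count is not read as a trait of head-to-head pairs. Whether the member pairs differ from other pairs was not tested, and the 3 pairs whose sequences are printed were chosen after their values were seen.

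CLIP libraries were small, with 6151 to 10902 counts each, and no control precipitate was analysed here. Members took 1.32% to 2.22% of CLIP counts, against 2.42% to 2.92% of counts in Tg-labelled hepatocyte RNA. Clu alone had 10230, 9541 and 6389 TMM-scaled CPM in that RNA, so the RNA share rests in large part on this gene. Shares without Clu were not computed. The 95% Wilson intervals of the CLIP shares, which cover counting error only, had upper bounds of 1.55% to 2.53%, the highest inside the RNA range. In all, 132 members had a count in at least 1 of the 10 libraries, and those with one in all 10 included Tgm1, an epidermal transglutaminase, and Dock9, an activator of Cdc42. Most of the 1280 member counts came from few genes: Tgm1 had 270, Trim35, a ubiquitin ligase, had 264 and Fut11, a fucosyltransferase, had 185. Trim35 had 47 to 54 counts in 5 libraries, 3 in 1 library and 0 in the other 4, and Fut11 had 11 to 114 counts in 5 libraries and 0 in the rest. These genes split the libraries into 2 sets. Fut11, Ppp2r2a and Bmp4 had counts in libraries 1, 3, 4, 6 and 10 and in no other, and Gch1 had counts in libraries 2, 5, 7, 8 and 9 and in no other, which are also the 5 with 47 to 54 counts of Trim35. The labels do not set these libraries apart, and the totals over 10 libraries given here pool both sets. A count of 0 allows up to 3 counts in a library of this size.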

How the data were processed

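RNA-seq of 20 mouse pools and 10 CLIP libraries were analysed. Per the submitters' processing notes, reads were base-called with bcl2fastq, aligned with STAR 2.0.4b to GRCm38 and counted with Subread featureCounts 1.45. The strand setting of the counting is not given in the sources used here, so reads of genes that overlap on opposite strands may not be told apart. The authors deposited raw counts per gene, CPM (counts scaled to the library total) and RPKM (CPM per length). CPM and RPKM recomputed from the deposited counts matched, and tests used the counts. RPKM entered no result.

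The members, role lists and marker lists were chosen with earlier results of these data known. Each comparison was fitted over all genes with edgeR 4.0.16 (R 4.3.3): filterByExpr (minimum count 10, minimum total 15), TMM factors, the quasi-likelihood F-test and Benjamini-Hochberg adjustment over all genes tested, with a threshold of 0.05. Differences between effects were contrasts of 4 groups in 1 fit. Per-pool levels are log2 of TMM-scaled CPM plus 0.5. CPM of named genes are TMM-scaled within a comparison. Those of A1cf are as deposited.

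Genes were named by a rule: the member of highest mean CPM in each 10 Mb window, the 10 of highest mean CPM on the chromosome, the 5 largest rises and falls among calls of each comparison with at least 2 CPM and no overlap, and the 3 highest of each role list with any of its calls in KO livers. Exceptions are stated, and 1 CLIP result is not reported here. Alternatives were DESeq2 1.42.0, other scalings, filters and member minimums, 1 fit over all 6 groups, a replicate block, gene-length residuals and each pool left out. Scripts were tested on simulated data. Totals ran from 17044839 to 37211328 counts in RNA and from 6151 to 10902 in CLIP libraries. Intervals cover counting error only.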

Additional observations from a re-analysis of the deposited data

Results flagged for a closer look

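In all, 119 tests by Dixon's criterion were made, each on 1 gene or summary value in a group of 4 or more samples. In 17 of them a sample was far from the others. Chance gives about 1 in 20 where tests are independent. Genes measured in the same libraries are not, so that rate is no yardstick here. In livers labelled Tg, pool 1 was the highest for Slc39a14 (495.3 TMM-scaled CPM), Clu (2565 CPM), Itih3 (1752 CPM), Irf9 (43.76 CPM), Itm2b (868.2 CPM), Nr1d2 (117.9 CPM), Klf12 (38.69 CPM) and Slc4a7 (14 CPM). Pool 3 of the same group was the highest for Abcc4 (106.4 CPM) and Dgkh (5.89 CPM) and the lowest for Vwa8 (158.4 CPM). In 6J livers, pool 2 stood out for Ldb3 (39.32 CPM), Tnnc1 (10.14 CPM), Slc7a8 (12.72 CPM) and Abcc4 (26.4 CPM), and pool 3 for Tgds (18.75 CPM). Members took 2.218% of counts in CLIP library 1, the highest of 10.

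Of 114 differences between effects tested for named genes, 7 passed. The Tg effect in liver minus the KO effect was -1.598 for Abhd6, 1.427 for Slc7a7, -0.9893 for Slc25a37, -1.377 for Vwa8 and -1.133 for Pcca, on the log2 scale. Comparing liver with hepatocytes, the Tg effect was higher in liver by 1.963 for Il17rb and by 4.326 for Dnah1.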

How the results depend on the processing

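No call of a named gene changed direction under the alternatives run for it, and the KO median, which lay near 0, changed sign once. The number of members called was the least stable value. In hepatocytes (78 calls) it was 215 with DESeq2, 189 in 1 fit over all 6 groups and 0 to 223 with each pool left out in turn. In livers labelled Tg (12 calls) it was 75, 61 and 0 to 95 under the same alternatives, and in KO livers (21 calls) it was 0 in the fit over all 6 groups, 33 with no filter on low counts and 2 to 19 with each pool left out. The count of members whose Tg and KO effects differed (10) ran from 2 to 66. The cause was not tested.

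The hepatocyte median of -0.69 was -0.496 in the fit over all 6 groups, where other genes had 0.15, -0.6261 as residuals on gene length, and -0.7382 to -0.6369 with each pool left out. The liver Tg median ran from -0.43 to -0.22 with each pool left out and was -0.16 with library totals alone. The KO median was 0.01017 in the fit over all 6 groups, -0.03594 with a member minimum of 5 CPM and -0.02243 to -0.002232 with each pool left out.

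With the replicate block, 1 hepatocyte, 0 liver Tg and 13 KO members were called. Same-numbered pools did not deviate together throughout (correlations of 0.764, -0.615 and -0.0139 in hepatocytes, -0.13 to 0.0645 in livers labelled Tg and 0.00884 to 0.111 in KO livers), so the numbers were not taken as a pairing. Of the named genes called, 0 of 13, 0 of 7 and 0 of 14 were called under every alternative in the 3 comparisons. Differences between Tg and KO effects were recomputed only with each pool left out, where 2 of 5 kept their call throughout, those of Vwa8 and Pcca. In CLIP libraries of 6151 to 10902 counts, 309 of 441 members had no count.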
